A study of Mus musculus with 10 samples.

Results

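The Toll-like receptor genes Tlr1, Tlr2, Tlr3, Tlr4, Tlr6, Tlr7 and Tlr9, the receptor relative Cd180, the trafficking protein gene Unc93b1 and the adaptor gene Myd88 were described in splenic B cells of mice with and without a Bcl6 transgene. These 10 genes were chosen by symbol, and each of the 10 was represented by 1 probe set among the 19937 genes measured. Expression was measured on 10 Affymetrix Mouse Gene 1.0 ST arrays of B220+CD22+ cells sorted from spleens of CBAxC57BL/6J mice. Of these, 3 arrays came from wild-type mice, 3 from Sca1-Bcl6(floxed) mice and 4 from Sca1-Bcl6(delta) mice. Floxed mice carry mouse Bcl6 joined by an IRES to eGFP, flanked by loxP, in a vector of the Sca1 gene (Ly6a), whose expression is directed to stem and progenitor cells. Delta mice carry the same transgene together with mb1-Cre, a recombinase under the control of the Cd79a locus that acts in the B lineage, and the wild-type mice carry neither. The study made 2 transgenic lines, and the labels assign no array to a line, an age or an animal, so the spread between arrays may be technical or biological.

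Toll-like receptors recognise microbial molecules and signal through a cytoplasmic TIR domain. TLR1, TLR2, TLR4 and TLR6 act mainly at the cell surface on lipoproteins and lipopolysaccharide, while TLR3, TLR7 and TLR9 reach endosomes with the help of the chaperone UNC93B1 and sense RNA or DNA. B cells respond directly to lipopolysaccharide, to RNA ligands of TLR7 and to CpG DNA, and CD180 (RP105) pairs with MD-1 (Ly86) on their surface. MYD88 is the adaptor of every receptor described here other than TLR3, which uses TRIF (Ticam1), and other than CD180, which lacks a TIR domain.

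The values are the authors' RMA intensities, a normalised and summarised brightness per probe set, and differences are given on the log2 scale. Probe sets differ in brightness for the same amount of RNA, so levels were compared between arrays and not between genes. Array medians lay between 139 and 145, and correlations across genes lay between 0.993 and 0.997 within groups and between 0.989 and 0.996 across groups. Bcl6 did not differ detectably in floxed against wild-type arrays (log2 difference -0.17, SE 0.15, adjusted p = 0.688 by limma). Delta arrays had a Bcl6 difference from wild-type of -0.35 (SE 0.14, adjusted p = 0.578), and wild-type 1 (1430.5) lay above all other arrays (757 to 993). Summed over 9 measured genes, B cell marker intensity was 72903 to 76345 in wild-type, 72052 to 77257 in floxed and 68411 to 72248 in delta arrays. The delta sums thus lay wholly below the wild-type sums. Cd79a, 1 of these markers, had a mean intensity of 10433 in wild-type and 7470 in delta arrays. This gene, whose locus carries mb1-Cre in delta mice, made up a large part of the gap between the sums. Over the 9 markers the median log2 difference of delta from wild-type was -0.04, with 1 positive and 8 negative. The sex pattern of the arrays, read from Xist and 3 Y-linked genes, was female in all 3 wild-type arrays, male in all 3 floxed arrays and male in 1 of 4 delta arrays (delta 1). Sex and genotype therefore cannot be told apart in floxed against wild-type, apart from a correction that rests on delta 1. Tlr7 lies on the X chromosome next to Tlr8, and the other 9 genes are autosomal. In these bulk samples, fewer cells of a type and less RNA per cell cannot be told apart.

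Myd88, Tlr9 and Tlr3 each had 1 annotated start and floxed arrays that did not overlap wild-type arrays. Of these genes, the sequences just before the transcription start of Myd88 and Tlr9 are shown as examples. They cover the 250 bases before the start, the only stretch searched, in the RefSeq annotation (build GRCm38.p6), at chr9:119340019-119340268 on the minus strand for Myd88 and at chr9:106222348-106222597 on the plus strand for Tlr9. Capitals mark matches to 4 motifs searched on both strands, which were GAAA, any pair of bases and GAAA (bound by interferon regulatory factors), TTCCTNGAA (BCL6), GGGA, any base and TTTCC (NF-kappaB) and ATGCAAAT (the octamer bound by OCT1 and OCT2).
Myd88: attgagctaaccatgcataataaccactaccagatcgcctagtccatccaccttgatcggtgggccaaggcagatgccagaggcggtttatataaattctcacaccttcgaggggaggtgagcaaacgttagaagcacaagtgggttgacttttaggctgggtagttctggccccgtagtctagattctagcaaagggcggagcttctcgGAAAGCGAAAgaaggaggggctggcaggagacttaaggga
Tlr9: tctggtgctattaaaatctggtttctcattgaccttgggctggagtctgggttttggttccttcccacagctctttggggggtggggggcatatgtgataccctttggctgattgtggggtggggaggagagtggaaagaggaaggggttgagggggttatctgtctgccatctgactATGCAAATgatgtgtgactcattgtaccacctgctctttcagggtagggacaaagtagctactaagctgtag

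In the Myd88 sequence the match is to the interferon motif, 40 to 31 bases before the start, and in Tlr9 it is to the octamer, 72 to 65 bases before it. Among 32817 such windows of all genes, the interferon motif occurred in 2.97%, the octamer in 1.60%, the NF-kappaB motif in 0.357% and the BCL6 motif in 1.31%. Windows were found for 7 of the 10 genes, 10 windows in all, and Tlr4, Tlr7 and Unc93b1 had none in the table. Tlr3 held 1 match to the NF-kappaB motif (GGGAGTTTCC, 211 to 202 bases before its start). Of the 2 windows of Tlr6, 1 held a pair of overlapping matches to the interferon motif on the opposite strand. The BCL6 motif occurred in 0 of the 10 windows. These matches describe the letters of the windows and were not linked to the arrays.

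Floxed against wild-type arrays asked what differs in B cells that carry the intact transgene. In this comparison 0 of the 10 Toll-like receptor genes passed the threshold of an adjusted p of 0.05 in limma, where 0.552% of all genes passed. Without adjustment 4 of 10 had a p under 0.05 (3 higher and 1 lower), against 12.8% of all genes. The groups did not overlap for 4 genes, all higher in floxed (Myd88, Unc93b1, Tlr9 and Tlr3), beside 16.7% of all genes. In floxed arrays 7.6% of all genes lay wholly higher and 9.13% wholly lower. The median log2 difference was 0.07 over the 10 genes, -0.02 over the 5 surface receptors and 0.25 over the 4 endosomal genes, against -0.02 over all genes tested.

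**Figure D1:**
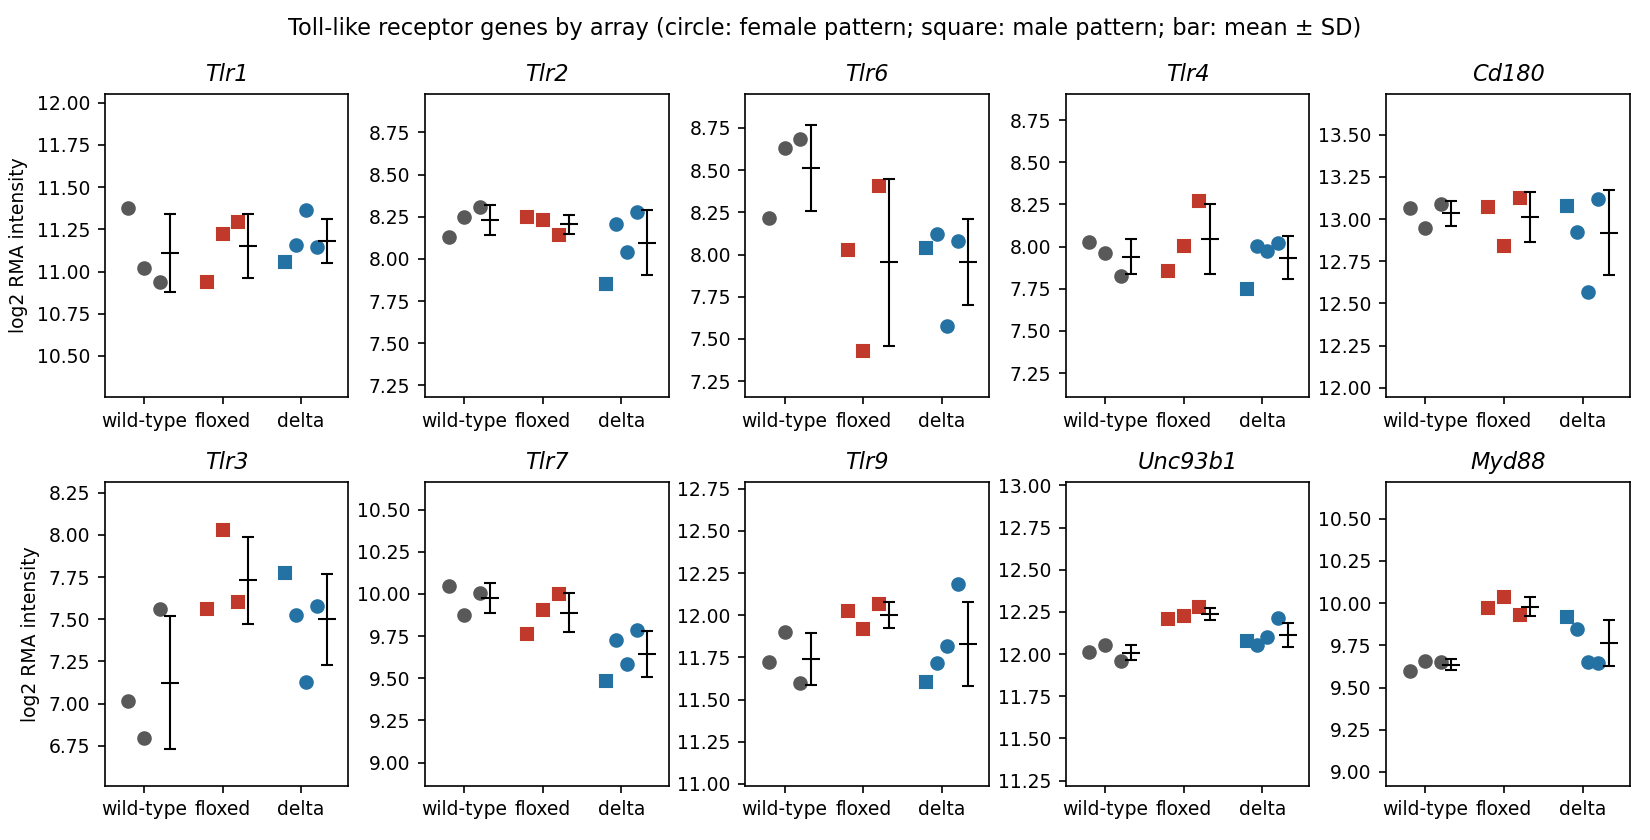
Log2 RMA intensity (vertical axis, all panels spanning the same range) of each gene on each array, with circles for arrays of female pattern, squares for arrays of male pattern and bars for the group mean ± SD (n = 3, 3 and 4). Myd88 and Unc93b1 show floxed arrays above wild-type arrays with little spread, whereas Tlr6 and Tlr3 spread widely within groups.

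Myd88, the shared adaptor, had the smallest p of the 10 genes. Its RMA intensity was 775, 806 and 805 in wild-type 1 to 3, 1005, 1052 and 974 in floxed 1 to 3, and 967, 919, 805 and 802 in delta 1 to 4. All floxed arrays lay above all other arrays, while delta 1 and delta 2 lay between the floxed arrays and the rest. The log2 difference of Myd88 in floxed against wild-type was 0.34 (1.27-fold, SE 0.08, 95% CI 0.17 to 0.52), with a limma adjusted p of 0.0909. Delta arrays were 0.13 above wild-type for Myd88 (SE 0.08, adjusted p = 0.751) and had a difference of -0.21 from floxed arrays (SE 0.08, adjusted p = 0.724). Without delta replicate 1 the former was 0.079. With the sex pattern as a covariate the difference between floxed and wild-type was 0.14 (SE 0.12), and delta 1, the male delta array, was 0.20 above the mean of the other delta arrays. The difference of delta from floxed arrays was -0.06 with the same covariate.

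Unc93b1 encodes the multipass membrane protein that escorts the endosomal receptors out of the endoplasmic reticulum. Its intensity was 4133, 4243 and 3987 in wild-type 1 to 3, 4740.0, 4795 and 4971 in floxed 1 to 3, and 4319.5, 4256, 4394 and 4759 in delta 1 to 4. Wild-type arrays were lowest, with no overlap with either other group, and delta 4 alone reached the floxed range. The highest wild-type value (4243) and the lowest delta value (4256) almost met. Unc93b1 was 0.23 higher on the log2 scale in floxed than in wild-type (SE 0.06, 95% CI 0.09 to 0.37, limma adjusted p = 0.133). The difference of Unc93b1 was 0.10 in delta against wild-type (SE 0.06, adjusted p = 0.739) and -0.13 in delta against floxed (SE 0.06, adjusted p = 0.777). Without delta replicate 4 delta arrays were 0.069 above wild-type. The Unc93b1 difference was 0.28 in floxed against wild-type with the sex pattern as a covariate (SE 0.11), and delta 1 lay within the range of the other delta arrays.

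Tlr9, the receptor for unmethylated CpG DNA, showed the same order of floxed and wild-type arrays with a wider delta group. Its intensity was 3381, 3824 and 3096 in wild-type 1 to 3, 4162, 3873 and 4285 in floxed 1 to 3, and 3119.8, 3363, 3607 and 4652 in delta 1 to 4. Wild-type 2 came close to floxed 2, and the delta arrays spanned both groups. Tlr9 had a log2 difference of 0.26 in floxed against wild-type (SE 0.13, limma adjusted p = 0.434), 0.09 in delta against wild-type (SE 0.12) and -0.17 in delta against floxed (SE 0.12). Its estimate in floxed against wild-type moved to 0.56 (SE 0.21) with the sex pattern and to 0.06 (SE 0.15) with the mean of T cell markers as a covariate. Its difference of delta from floxed was -0.097 without delta replicate 1 and -0.29 without delta replicate 4.

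Tlr3, the receptor for double-stranded RNA, had the largest positive difference among the 10 genes. Its intensity was 129, 111 and 189 in wild-type 1 to 3, 189, 261 and 194 in floxed 1 to 3, and 219, 184, 139.7 and 191 in delta 1 to 4. The highest wild-type value (188.6) and the lowest floxed value (188.9) almost met, so the lack of overlap rests on a gap smaller than any spread within a group. The log2 difference of Tlr3 in floxed against wild-type was 0.61 (1.52-fold, SE 0.20, 95% CI 0.16 to 1.05), with a limma adjusted p of 0.229. Delta arrays were 0.38 above wild-type for Tlr3 (SE 0.19, adjusted p = 0.687), with 0.21 without wild-type replicate 2 and 0.59 without wild-type replicate 3. Wild-type 1 and 2 had log2 levels of 7.02 and 6.80, below 7.20, the median of the mean levels of all genes, so the differences are taken against dim values. With the sex pattern as a covariate it was 0.24 (SE 0.34) in floxed against wild-type, and delta 1 was 0.36 above the mean of the other delta arrays.

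Tlr7, the X-linked receptor for single-stranded RNA, had a larger difference in delta against wild-type than in its other comparisons. Its intensity was 1057, 939 and 1028 in wild-type 1 to 3, 870.3, 957 and 1023 in floxed 1 to 3, and 715, 847, 769 and 882 in delta 1 to 4. All delta arrays lay below all wild-type arrays, and floxed arrays overlapped both groups. The log2 difference of Tlr7 in delta against wild-type was -0.33 (SE 0.09, 95% CI -0.52 to -0.14), with a limma adjusted p of 0.286. In delta against floxed it was -0.24 (SE 0.09, adjusted p = 0.724), and the difference of floxed from wild-type arrays was -0.09 (SE 0.09, adjusted p = 0.745). With the sex pattern as a covariate, delta against wild-type was -0.28 (SE 0.08), and floxed against wild-type changed sign to 0.13 (SE 0.15). Delta 1 was the lowest array. The difference of floxed from wild-type was -0.03 without floxed replicate 1 and -0.14 without floxed replicate 3.

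Tlr6, which pairs with TLR2 to recognise diacylated lipoproteins, was the surface receptor with the largest differences. Its intensity was 298, 397 and 411 in wild-type 1 to 3, 260.5, 172 and 339 in floxed 1 to 3, and 263, 279, 191 and 271 in delta 1 to 4. All delta arrays lay below all wild-type arrays, whereas floxed 3 lay above wild-type 1. Against wild-type, Tlr6 had a log2 difference of -0.56 in floxed arrays (SE 0.22, limma adjusted p = 0.328) and of -0.56 in delta arrays (SE 0.21, adjusted p = 0.516), comparisons that share the wild-type arrays. Delta against floxed was near 0 (95% CI -0.46 to 0.46). The estimate in floxed against wild-type was -0.30 without floxed replicate 2, -0.97 with the T cell marker mean as a covariate and -1.08 when floxed replicate 2 was the only floxed array kept.

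Tlr1, the neighbour of Tlr6 on chromosome 5 and the partner of TLR2 for triacylated lipoproteins, had differences near 0. Its intensity was 2653, 2074 and 1960.3 in wild-type 1 to 3, 1962, 2388 and 2514 in floxed 1 to 3, and 2128, 2280.2, 2638 and 2266 in delta 1 to 4. The groups overlapped fully. The log2 difference of Tlr1 was 0.04 (95% CI -0.24 to 0.32) in floxed against wild-type and 0.07 (95% CI -0.19 to 0.33) in delta against wild-type. Tlr1 and Tlr6 are similar genes, and whether their probe sets share signal was not tested.

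Tlr2, the common partner of TLR1 and TLR6, had intensities of 281, 304 and 318 in wild-type 1 to 3, 304, 300.3 and 282 in floxed 1 to 3, and 231, 296, 264 and 311 in delta 1 to 4. Its log2 difference was -0.02 (95% CI -0.25 to 0.20) in floxed against wild-type and -0.14 (95% CI -0.35 to 0.07) in delta against wild-type. With the sex pattern as a covariate the former was 0.30 (SE 0.14), and delta 1 was the lowest of all arrays. Without delta replicate 1 the latter was -0.053. Wild-type and floxed arrays thus occupied the same range, and the lowest delta values widened that group.

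Tlr4, the lipopolysaccharide receptor, had intensities of 261, 249 and 227 in wild-type 1 to 3, 232, 257 and 308 in floxed 1 to 3, and 215, 256, 252 and 259 in delta 1 to 4. The groups overlapped, with floxed 3 highest and delta 1 lowest. Tlr4 had a log2 difference of 0.10 (95% CI -0.14 to 0.34) in floxed against wild-type and -0.11 (95% CI -0.33 to 0.11) in delta against floxed.

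Cd180, which encodes a surface receptor that modulates lipopolysaccharide responses in B cells, had intensities of 8579, 7910.1 and 8712 in wild-type 1 to 3, 8608, 7346 and 8923 in floxed 1 to 3, and 8636, 7759, 6063 and 8893 in delta 1 to 4. Delta 3 was lowest and floxed 2 next, and the other arrays lay between 7759 and 8923. For Cd180 the log2 difference was -0.02 (95% CI -0.31 to 0.26) in floxed against wild-type and -0.11 (95% CI -0.38 to 0.15) in delta against wild-type. Its partner Ly86 (MD-1), a gene chosen here after its values were seen, had log2 levels of 12.68 to 12.94 in wild-type, 12.83 to 12.92 in floxed and 12.75 to 12.92 in delta arrays.

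Delta against wild-type arrays showed which differences accompany the transgene together with mb1-Cre. Here 0 of the 10 Toll-like receptor genes passed in limma, where 0.0752% of all genes passed (0.0301% higher and 0.0451% lower), and 2 had an unadjusted p under 0.05 (Tlr6 and Tlr7, both lower) against 7.89% of all genes. The groups did not overlap for Tlr6 and Tlr7, both lower, and for Unc93b1, which was higher, where 5.5% of all genes lay wholly lower and 3.75% wholly higher. Delta against floxed arrays compared the same transgene with and without mb1-Cre, but these groups also differed in sex pattern. It was male in 3 of 3 floxed and 1 of 4 delta arrays. Again 0 of 10 passed in limma, where 0.00502% of all genes did, and 2 had an unadjusted p under 0.05 (Myd88 and Tlr7, both lower in delta) against 6.42% of all genes. Myd88 alone had groups that did not overlap, beside 6.96% of all genes (3.61% wholly lower and 3.36% wholly higher in delta). Its lowest floxed intensity (973.9, floxed 3) and highest delta intensity (967.3, delta 1) almost met. The delta mean of Myd88, Unc93b1, Tlr9 and Tlr3 lay between the wild-type and floxed means for each gene, and the 3 comparisons share their arrays. These were the genes with floxed arrays wholly above wild-type arrays. The share of arrays of male pattern had the same order of groups. Among delta arrays, delta 1, of male pattern, was highest for Myd88 and Tlr3, lowest for Tlr9 and within the range of the others for Unc93b1.

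**Figure D2:**
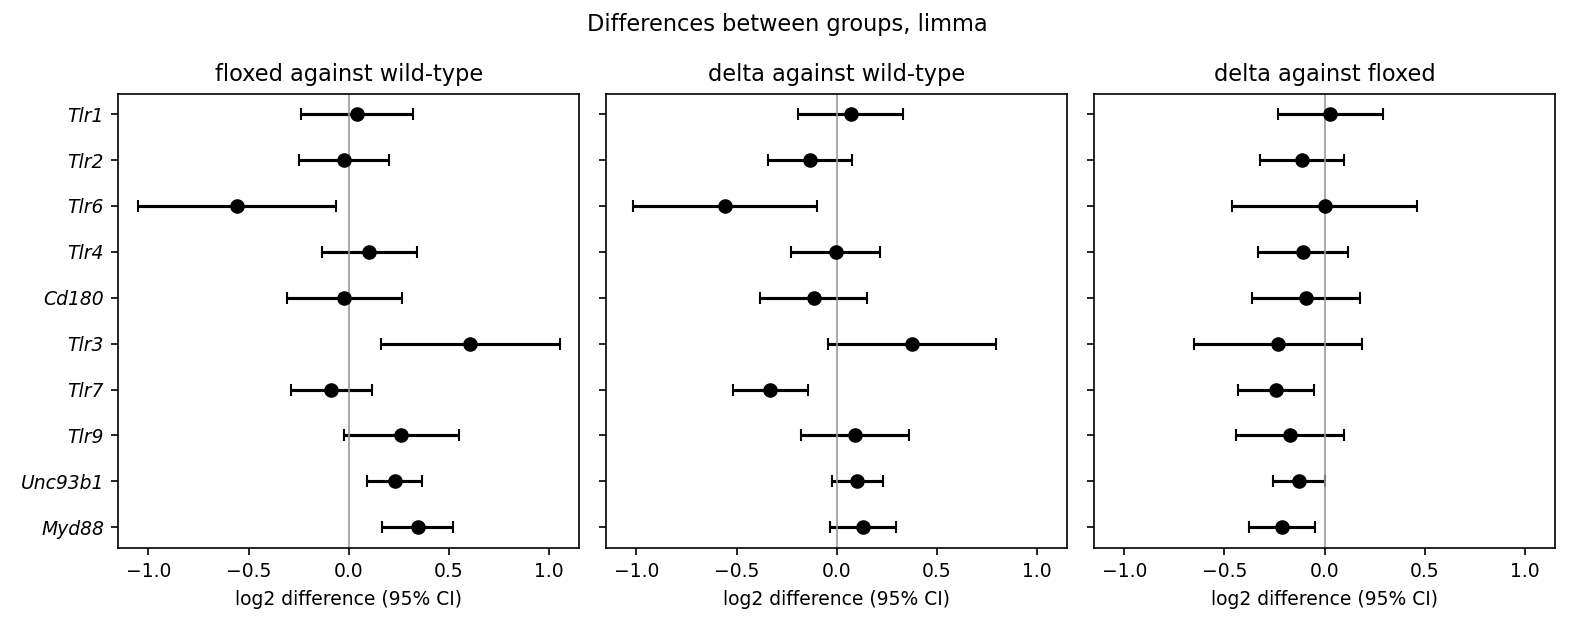
Log2 differences between group means with 95% confidence intervals from limma (horizontal axis) for the 10 genes in each comparison. Myd88, Unc93b1 and Tlr3 lie above 0 in floxed against wild-type, and Tlr6 and Tlr7 lie below 0 in delta against wild-type, before adjustment over all genes.

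The remaining receptors and co-receptors of the pathway were read from a list of 10, of which 8 were measured and 0 passed in either direction in any comparison. Cd36, a scavenger receptor that presents diacylated lipids to TLR2 and TLR6, had log2 levels of 9.51 to 9.94 in wild-type, 9.03 to 9.29 in floxed and 8.35 to 9.25 in delta arrays. Both transgenic groups lay wholly below wild-type, as delta arrays did for Tlr6, with a log2 difference of Cd36 of -0.59 in floxed (SE 0.21, limma adjusted p = 0.269) and -0.92 in delta (SE 0.20, adjusted p = 0.174). Cd14, the lipopolysaccharide co-receptor of myeloid cells, was at -0.26 in floxed arrays relative to wild-type (SE 0.10, adjusted p = 0.305). The list median was -0.02 in floxed and -0.11 in delta against wild-type, beside -0.02 and -0.01 over all genes.

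Chaperones, trafficking and transport proteins and endosomal proteases of the Toll-like receptor pathway had 10 of 10 listed genes measured and 0 passing in any comparison. In floxed against wild-type all 10 had positive log2 differences (0.02 to 0.39, median 0.11), and in delta against floxed all 10 had negative ones (median -0.11), which share the floxed arrays. Over all 19937 genes 8359 were positive in floxed against wild-type and 9553 negative in delta against floxed. Ctsb, the lysosomal protease cathepsin B, was at 0.39 in floxed against wild-type (SE 0.10, limma adjusted p = 0.132), and Cnpy3, a co-chaperone of Toll-like receptors, was at 0.17 (SE 0.06, adjusted p = 0.255). In delta against wild-type 6 of the 10 were positive, with a median of 0.01.

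The adaptors, kinases and ubiquitin ligases that act after the receptors had 21 of 24 genes measured, 0 passing in any comparison, and a median log2 difference of -0.005 in floxed and -0.004 in delta against wild-type. Ticam2, the TRAM adaptor of TLR4, was at 0.25 (SE 0.07, limma adjusted p = 0.173) and the kinase gene Ikbke at 0.35 (SE 0.13, adjusted p = 0.268), both in floxed arrays relative to wild-type. The other 19 lay between -0.11 and 0.09.

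Of the transcription factors activated by the pathway, 10 of 11 were measured and 0 passed in any comparison. Irf8, an interferon regulatory factor of B cells and dendritic cells, had log2 levels of 11.64 to 11.76 in wild-type, 11.96 to 12.09 in floxed and 11.76 to 11.93 in delta arrays. Its group means had the order seen for Myd88, with floxed above delta and delta above wild-type, and its log2 difference in floxed against wild-type was 0.32 (SE 0.07, limma adjusted p = 0.0684). Irf1, which acts in interferon and TLR9 responses, was at 0.35 (SE 0.09, adjusted p = 0.121). Irf7, the interferon factor of TLR7 and TLR9 signalling, named here after its values were seen, had log2 levels of 8.61 to 8.92 in wild-type, 8.35 to 8.47 in floxed and 8.31 to 8.66 in delta arrays. Floxed arrays lay wholly below wild-type, with a difference of -0.36 (SE 0.10, adjusted p = 0.150). The list median was 0.02 in floxed and 0.06 in delta against wild-type.

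Negative regulators had 13 of 14 genes measured and 0 passing in any comparison, with medians of 0.08 in floxed and 0.03 in delta against wild-type. Dusp1, a phosphatase that switches off MAP kinases, was at 0.75 in floxed (SE 0.27, limma adjusted p = 0.269) and 0.81 in delta arrays relative to wild-type (SE 0.25, adjusted p = 0.387). Tank, a TRAF-binding regulator, was at 0.28 in floxed (SE 0.13, adjusted p = 0.392).

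Genes that Toll-like receptor ligands induce in B cells had 18 of 19 measured and 0 passing in any comparison. In floxed against wild-type 16 were positive and 9 had an unadjusted p under 0.05, all higher, with a median of 0.31. Over all 19937 genes 8359 were positive, 1225 were higher and 1322 lower at that level, with a median of -0.02. In delta against wild-type 15 were positive, and 9 were higher and 1 lower at that level, with a median of 0.33, beside 689 higher and 885 lower over all genes. Traf1, an adaptor of TNF receptors, was at 0.77 (SE 0.17, limma adjusted p = 0.0758) and the activation marker Cd83 at 0.72 (SE 0.16, adjusted p = 0.0758) in floxed against wild-type. Many signals other than Toll-like receptors induce the same genes, and the list mean above wild-type was 0.32 to 0.49 in floxed arrays and 0.13 to 0.61 in delta arrays, highest in delta 1.

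**Figure D3:**
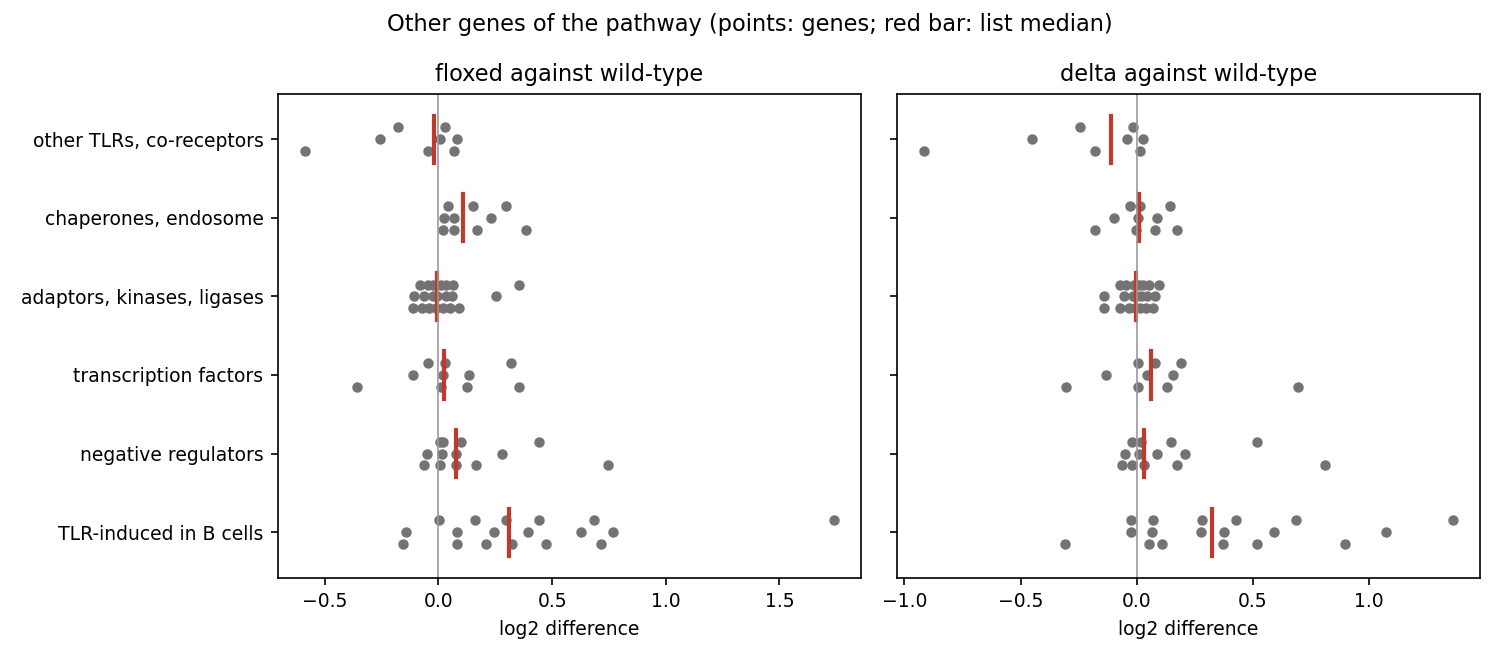
Log2 differences (horizontal axis) of each measured gene in 6 pathway lists, in floxed and in delta against wild-type arrays, with a red bar at each list's median. Most adaptors and kinases cluster at 0, while genes induced by Toll-like receptor ligands in B cells have medians of 0.31 and 0.33.

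Markers of other cells were also read in each group. The T cell list, with 12 of 14 genes measured, had a summed intensity of 3953 to 4308 in wild-type, 4237 to 4855 in floxed and 3882 to 4776 in delta arrays. Cd2 made up most of that sum, at 2908 to 2993 in wild-type and 2702 to 3026 in floxed arrays, and its difference was -0.03. The list mean was 0.03 to 0.71 above wild-type in floxed arrays, and 11 of 12 genes were positive, with Cd3d at 0.42 (limma adjusted p = 0.100) and Cd28 at 0.44 (adjusted p = 0.178) in floxed against wild-type. The NK cell list summed to 691 to 801, 1131 to 1436 and 726 to 1165 in the same order of groups, with Prf1 at 0.81 (adjusted p = 0.106) and Il2rb at 1.40 (adjusted p = 0.115). Its median difference in floxed against wild-type was 0.17, with 9 genes positive and 2 negative. Most of the rise in the sum lay in Prf1, Il2rb and Nkg7. Their mean intensities were 212, 90 and 117 in wild-type and 372, 240 and 271 in floxed arrays. The erythroid list summed to 1785 to 2773, 2818 to 3772 and 1416 to 2702, with Car1 at 0.56 (adjusted p = 0.0568) and Trim10 at 0.82 (adjusted p = 0.100). In all 3 of these lists 0 genes passed in any comparison.

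Myeloid and dendritic cells, which express several Toll-like receptors strongly, were read in the same way. The myeloid list, with 18 of 19 genes measured, summed to 2307 to 2552 in wild-type, 2806 to 3443 in floxed and 2596 to 3805 in delta arrays, with Adgre1 at 1.91 (limma adjusted p = 0.0809) and Ltf at 0.30 (adjusted p = 0.263) in floxed against wild-type. The median difference of the myeloid list was 0.05 in floxed and -0.01 in delta against wild-type. In floxed against wild-type 11 of its genes were positive and 7 negative. Adgre1 alone had a mean intensity of 181 in wild-type and 683 in floxed arrays, a large part of the rise in the sum. The conventional dendritic list summed to 634 to 655, 692 to 832 and 631 to 701, with Flt3 at 1.02 (adjusted p = 0.0558) and Clec10a at -0.32 (adjusted p = 0.224). Its median difference was -0.08, and 5 of its 7 genes were negative. The plasmacytoid dendritic list, which marks cells rich in TLR7 and TLR9, had 6 of 8 genes measured and summed to 1058 to 1224, 1141 to 1203 and 1117 to 1183, with Ccr9 at 0.68 (adjusted p = 0.252) and Cd300c at -0.21 (adjusted p = 0.404). No gene of these 3 lists passed in limma in any comparison, and the part of such cells in the values of the Toll-like receptor genes was not tested beyond the T cell covariate.

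Markers of marginal zone, B1 and atypical B cells, subsets known for strong responses to Toll-like receptor ligands, were all 13 measured. In floxed against wild-type 2 of 13 passed, both higher, beside 0.391% of all genes called higher. These were Tbx21 at 2.11 (SE 0.32, limma adjusted p = 0.0171) and Fcrl5 at 1.07 (SE 0.18, adjusted p = 0.0282), and 0 of 13 passed in the other comparisons. Under the 22 alternatives Tbx21 passed in 12 and Fcrl5 in 13, with differences of 1.88 to 2.43 and 0.90 to 1.40. With the sex pattern as a covariate their adjusted p was 0.365 and 0.304, and without wild-type replicate 2 it was 0.0755 and 0.116. The members did not share a direction, with 9 of 13 positive in floxed against wild-type and a range from -0.84 to 2.11. Of the marginal zone markers, Cr2 (-0.13), Cd1d1 (-0.29), Myof (-0.84) and Asb2 (-0.11), named here after their values were seen, had negative differences that did not pass. Cd9 and Dtx1, also read as marginal zone markers, went the other way and did not pass. Their mean log2 levels were 7.85 and 10.91 in wild-type and 8.15 and 11.29 in floxed arrays. The list mean was 0.43 to 0.65 above wild-type in floxed arrays and 0.08 to 0.73 in delta arrays. The part of these subsets in the values of the Toll-like receptor genes was not tested. Among B cell markers 1 of 9 passed, beside 0.0451% of all genes called lower. This was Cd79a, at -0.48 in delta against wild-type (SE 0.06, adjusted p = 0.0427). This is the locus that carries mb1-Cre in the delta mice, and the call held in 11 of 22 alternatives, with differences of -0.51 to -0.46 and an adjusted p of up to 0.211, without wild-type replicate 2.

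**Figure D4:**
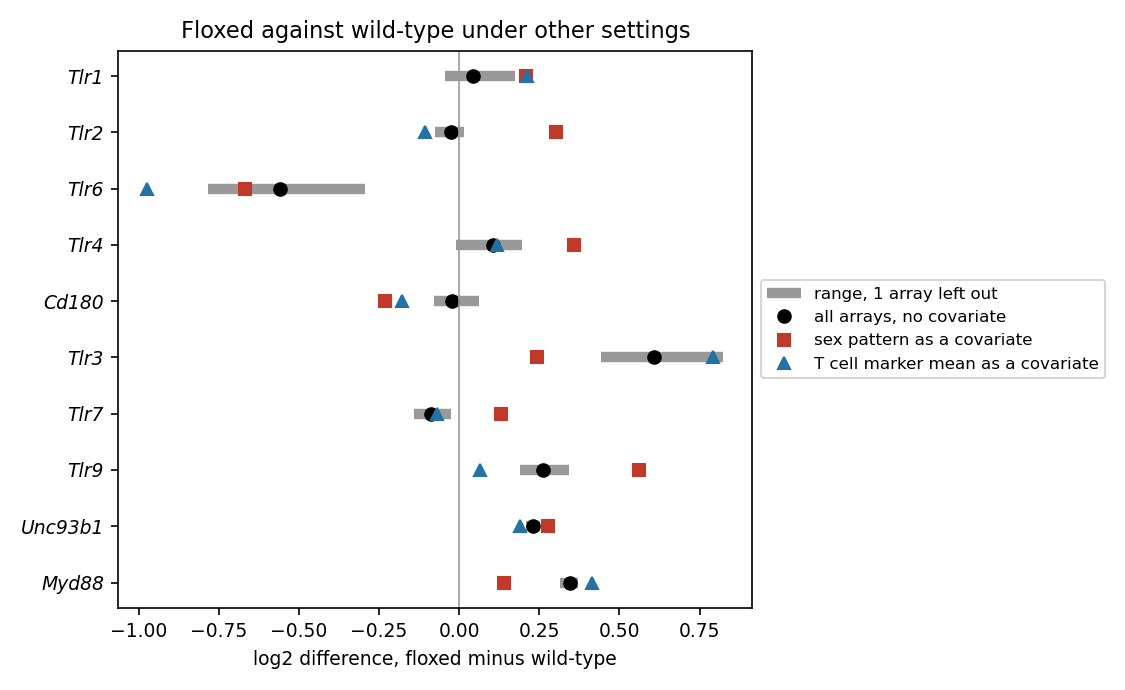
Log2 difference between floxed and wild-type arrays (horizontal axis) for each gene, with all arrays and no covariate (circles), over the 10 fits that each leave out 1 array (grey bars) and with the sex pattern (squares) or the T cell marker mean (triangles) as a covariate. Unc93b1 stays between 0.19 and 0.28 in these fits, whereas Myd88 is at 0.14 and Tlr9 at 0.56 with the sex pattern.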

How the data were processed

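Expression of splenic B220+CD22+ B cells was measured on 10 arrays, 3 wild-type, 3 floxed and 4 delta, grouped by their titles. The authors deposited 1 intensity per probe set and array, made with RMA per the submitters' processing notes. The values run from 4.46 to 26808, so they are linear, and log2 was taken. No label names the software version or build. Of 34760 probe sets, 21640 carried 1 symbol in the platform annotation, 1321 several and 11799 none. For genes with several probe sets (954), the one with the highest mean was kept. No filter on low values was applied. All 10 genes also passed the alternative filter, a mean log2 of 7.20 over all arrays, although the wild-type mean of Tlr3 was 7.12.

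Groups were compared with limma 3.58.1 in R 4.3.3 (lmFit on all 10 arrays, eBayes, 11.3 total degrees of freedom, two-sided, Benjamini-Hochberg over 19937 genes, threshold 0.05). The fit was tested on simulated data. The members, lists and alternatives were chosen with earlier results of these data known. The naming rule took all members and, from each other list, genes past the threshold or else the 2 smallest p in floxed against wild-type. A male pattern is a mean of Eif2s3y, Kdm5d and Uty above Xist. Arrays carry no counting error, so their number limits the precision. Same-numbered arrays did not deviate together (correlations of -0.08 to 0.12 over 9 pairs).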

Additional observations from a re-analysis of the deposited data

Results flagged for a closer look

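In the delta group 2 of 10 genes had an array that stood apart from the other 3 by Dixon's test. Chance alone gives such an array in about 1 of 20 groups. Tlr4 had a log2 level of 7.75 in delta 1, the delta array of male pattern, against 7.97 to 8.02 in the other delta arrays. Tlr6 had a log2 level of 7.57 in delta 3 against 8.04 to 8.12 in the other delta arrays, and Cd180 was lowest in the same array. Without delta 3 the log2 difference of Tlr6 in delta against wild-type was -0.43.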

How the results depend on the processing

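Of the 10 genes, 0 passed in limma in any comparison under any of the 22 alternatives, of which 10 left out 1 array. The number with an unadjusted p under 0.05 ran from 2 to 5 in floxed against wild-type, 1 to 2 in delta against wild-type and 1 to 4 in delta against floxed. Of 30 differences, 15 kept their sign throughout, and the others, each at most 0.23 in size, changed sign in 43 of 660 fitted values. The cause was not tested.

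In floxed against wild-type, Tlr2 was at 0.012 and Cd180 at 0.014 with median centring, Tlr1 at -0.021 and Tlr2 at 0.014 with array weights, and Tlr2 at 0.30 and Tlr7 at 0.13 with the sex pattern. In delta against wild-type, Tlr4 was at 0.0052 after quantile normalisation, 0.012 with median centring and 0.058 with the sex pattern, and Tlr9 at -0.027 with the replicate block. In delta against floxed, Tlr6 was at -0.011 after quantile normalisation, -0.019 with median centring and -0.042 with the replicate block. There the sex pattern gave Tlr1 -0.096, Cd180 0.064 and Tlr3 0.041, the T cell mean gave Tlr1 -0.15, Cd180 0.073 and Tlr9 0.041, and keeping floxed replicate 2 alone gave Tlr1 -0.041 and Cd180 0.078. Leaving out 1 array, floxed against wild-type ran from -0.044 to 0.17 for Tlr1, -0.074 to 0.015 for Tlr2, -0.078 to 0.062 for Cd180 and -0.0085 to 0.20 for Tlr4. Delta against wild-type ran from -0.061 to 0.058 for Tlr4, -0.016 to 0.20 for Tlr1, -0.18 to 0.0038 for Cd180 and -0.027 to 0.17 for Tlr9. Delta against floxed ran from -0.078 to 0.10 for Tlr1, -0.26 to 0.23 for Tlr6, -0.20 to 0.0035 for Tlr4 and -0.18 to 0.026 for Cd180.

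Over all genes, 110 passed in floxed against wild-type. The number was 178 with median centring, 18 with every probe set kept, 208 with array weights, 2 with the sex pattern, 8 with the T cell mean, 6 with floxed replicate 2 alone, 193 with only the compared groups, 188 with the replicate block and 18 (without wild-type replicate 2) to 240 (without delta replicate 4) with 1 array left out. In delta against wild-type 15 passed, against 3, 1, 3, 9, 0, 0 and 6 with median centring, every probe set, the sex pattern, the T cell mean, floxed replicate 2 alone, only the compared groups and the replicate block, and 0 (without delta replicate 3, floxed replicate 1 or 3, or wild-type replicate 1 or 2) to 23 (without wild-type replicate 3) with 1 array left out. Where 0 passed in limma, 1313 to 1756 genes had an unadjusted p under 0.05. In delta against floxed 1 passed, against 2 with a variance trend, 2 with the replicate block, 2 with only the compared groups and 1 to 10 with 1 array left out. The replicate numbers did not pair the arrays, and the block changed the call of 0 of the 10 genes.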
